A study of Mus musculus with 2 samples.

Results

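The genes described here encode the matrix metalloproteinases (MMPs), the ADAM and ADAMTS metalloproteinases, the ADAMTS-like proteins (ADAMTSL), the tissue inhibitors of metalloproteinases (TIMPs) and the membrane-anchored inhibitor RECK. They were taken by gene symbol from the array annotation, whatever their values, as every probe set that named 1 such gene alone. This gave 125 of 45101 probe sets, and 71 of 18194 named genes. The study compared 2 arrays of cartilage from wild-type C57BL/6J mouse embryos at E17.5, shortly before birth. The first array held RNA of portions enriched in columnar and hypertrophic chondrocytes, and the other RNA of portions enriched in round chondrocytes. Each array pooled the RNA of 3 cartilage plate portions, neither group carried a genetic change or a treatment, and the spread between portions or embryos was not measured.

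Growth plate chondrocytes are embedded in a matrix of type II collagen and aggrecan that is laid down by the round cells, rearranged as the cells form columns, and opened for vessels and bone at the hypertrophic end. MMPs are secreted or membrane-bound zinc proteinases that cut collagens, gelatins and proteoglycans. ADAMs are membrane proteins, many of which release growth factors and receptors from the cell surface, whereas ADAMTS proteinases are secreted and include the aggrecanases and the enzymes that trim procollagens. ADAMTSL proteins resemble the ancillary part of ADAMTS proteins and lack the catalytic part, and several of them bind fibrillin microfibrils. TIMPs and RECK restrain these enzymes.

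Values are linear MAS5 signals, an intensity in arbitrary units that combines the probes of a probe set after background subtraction. The columnar/hypertrophic array had a median signal of 105 and the round array 128, and 50.8% and 55.0% of their probe sets lay at or above a floor of 100.5. Genes at or above the floor were called detected, and genes under it on both arrays undetected. The floor is the level under which 95% of the signals of chemosensory receptor genes lay, which cartilage is not known to use, and a signal under it gives no order of levels. Each gene is represented by its brightest probe set. Differences are log2 values of the columnar/hypertrophic array minus the round array, and a difference of at least 2-fold was the size counted. A gene under the floor on 1 array alone gives a bound, written as "at least". No test and no replicate error were possible with a single array in each group. The only spread available was that between probe sets of the same gene, whose log2 differences had an SD of 0.37 within a gene over 4827 genes. This spread is technical, and single differences near or under it are given as values alone.

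The labelled cell types were checked against their markers. Of 8 hypertrophic marker genes measured, 4 were detected on both arrays. All 4 were at least 2-fold higher in columnar/hypertrophic cartilage (3.98% of all genes), among them Ihh, the hedgehog ligand of prehypertrophic cells. Another 4, with Col10a1, the collagen of hypertrophic cartilage, were detected on the columnar/hypertrophic array alone and could only be higher. With these bounds 7 of 8 were at least 2-fold higher (background with bounds 4.31%). Of 6 round and periarticular marker genes, 5 were detected on both arrays, and 4 of these were at least 2-fold lower (5.42% of all genes). Prg4 was detected on the round array alone and could only be lower. With this bound 5 of 6 were at least 2-fold lower (background with bounds 6.37%). All 6 general chondrocyte markers were within 2-fold. Markers of endothelium and of erythroid cells were undetected (6 of 6 and 3 of 3). Of 8 macrophage and myeloid markers 4 were detected, with summed list signals of 706 on the columnar/hypertrophic array and 787 on the round array, among them Lyz2 (2.25-fold higher), Csf1r (-0.56) and Adgre1 (-0.49). Of 6 skeletal muscle markers 2 were detected, each on 1 array alone, and Tnnt3 was at least 4.26-fold higher. Genes of perichondrium, fibroblasts and tendon had a summed signal of 24423 on the columnar/hypertrophic array and 63674 on the round array. Most of each sum came from Col1a2 (15672 and 28235) and Col3a1 (4986 and 26223). Of these 12 genes 9 were detected on both arrays. Of the 9, 4 were at least 2-fold lower in columnar/hypertrophic cartilage (5.42% of all genes). None was higher by that much (3.98% of all genes), and Twist2 alone lay above 0 (0.43). Tnmd was detected on the round array alone and could only be lower. With this bound 5 genes were at least 2-fold lower (background with bounds 6.37%). Scx and Dpt, both markers of these tissues, were under the floor on both. Most of this marker list differed in the same direction as most genes described next. The part of these tissues in the differences of those genes was not tested. In such bulk RNA, fewer cells of a type and less RNA per cell cannot be told apart.

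Most members that were detected had a lower signal on the columnar/hypertrophic array, by a small amount. Of the 71 genes 25 were detected on both arrays, 7 on the round array alone, 0 on the columnar/hypertrophic array alone, and 39 on neither (35.7% of all named genes were undetected). Among the 25 genes, 21 had a difference under 0 (84.0%), against 52.3% of all 10236 named genes detected on both arrays, and the median difference was -0.37 against -0.03. Of these 25 genes 3 were at least 2-fold lower (Adam12, Adamtsl4 and Reck), where 5.42% of all genes were, and none was at least 2-fold higher, where 3.98% were. When bounds are included, 7 of 32 genes were at least 2-fold lower (background 6.37%) and 0 higher (background 4.31%). The 4 genes added, Adamtsl3, Adamtsl2, Adam22 and Adam23, entered through the round array alone and could only be lower. Of single member probe sets, 47 were detected on both arrays, 37 under 0 and 10 above, with a median of -0.38. They include the brightest probe sets of the 25 genes, so this count is no separate check. When the arrays were scaled to equal medians, the median of all genes moved to 0.25 and that of the members to -0.09, with 15 of 25 members under 0. With quantile normalization 18 and with lowess centring 19 were under 0, where the medians of all genes were -0.003 and -0.01. The share of all genes under 0 was not counted in these scalings, and the 52.3% above does not apply to them.

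**Figure D1:**
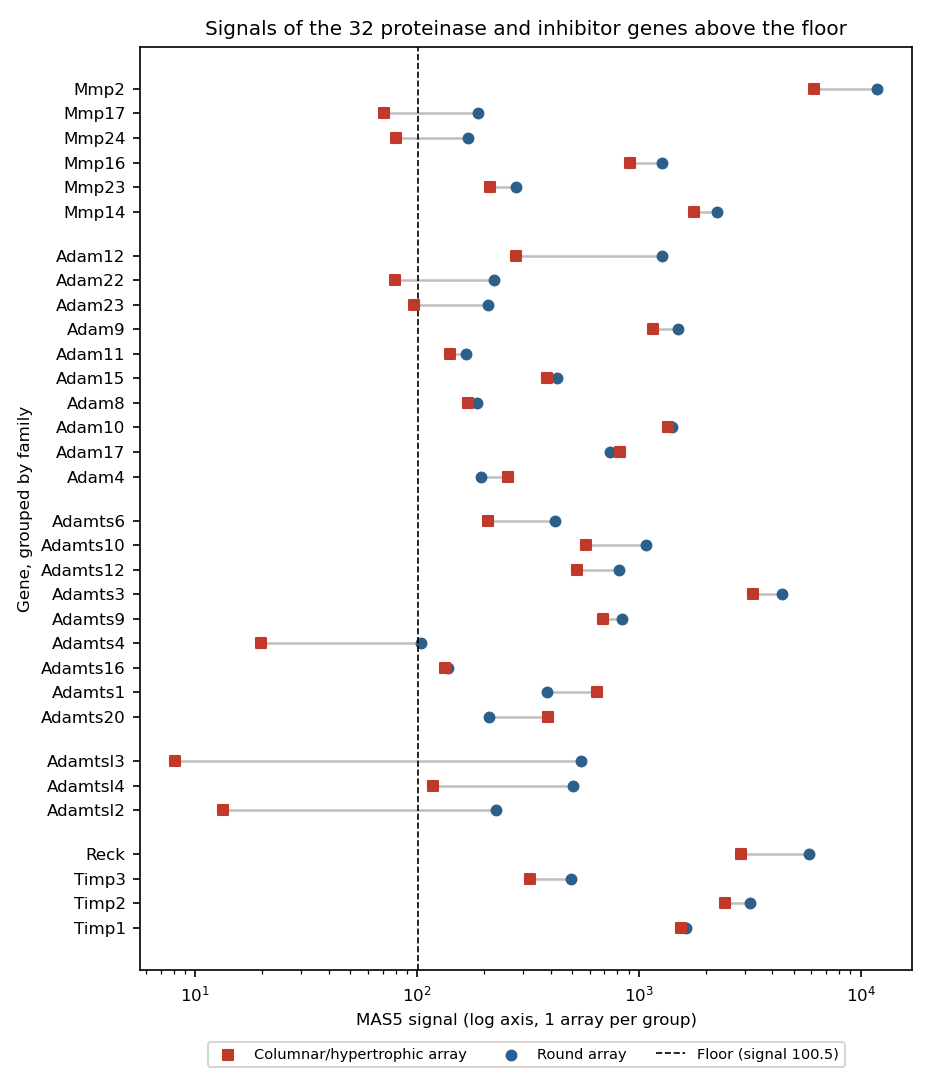
MAS5 signal (horizontal, log axis) of the 32 genes detected on 1 array or both, 1 row per gene, with the columnar/hypertrophic array as red squares, the round array as blue circles (1 array each) and the floor of 100.5 as a dashed line. Of these genes Adam17, Adam4, Adamts1 and Adamts20 alone have the square to the right of the circle.

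Of 18 MMP genes 4 were detected on both arrays, 2 on the round array alone and 12 on neither, and the 4 had a median difference of -0.43. Mmp2, encoding gelatinase A, which cuts denatured collagen and type IV collagen, had a signal of 6151 on the columnar/hypertrophic array and 11854 on the round array, 1.93-fold lower. Its second probe set gave 4733 and 10818 (2.29-fold lower), so both placed Mmp2 about a factor of 2 lower, on either side of the size counted. Mmp14 encodes the membrane-type enzyme MT1-MMP, a collagenase that, together with TIMP2, activates the Mmp2 product and that mice need for skeletal growth. It had signals of 1771 and 2262 on the columnar/hypertrophic and the round array (-0.35). Its other probe sets were lower by 0.43 and 1.26 on the log2 scale, so the 3 differed in size and not in direction. Mmp16, encoding MT3-MMP, had 915 and 1269 on these arrays (-0.47), but its 4 probe sets lay between -1.22 and 0.11 and settled no direction. Mmp23, which encodes an MMP with an unusual cysteine-rich tail, had 213 and 279 (-0.39). The membrane-type genes Mmp17 (71.0 and 188) and Mmp24 (79.97 and 169) were detected on the round array alone, and as bounds were at least 1.87-fold and 1.68-fold lower. All 4 MMP genes detected on both arrays had differences under 0 by the brightest probe set, where 52.3% of all genes did. They stayed under 0 with equal medians, quantile normalization and lowess centring. Mmp17 and Mmp24 could only be lower, so their direction adds nothing to this count.

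The other 12 MMP genes were undetected. They included Mmp13, the main collagenase of mouse cartilage and a gene of terminal hypertrophic cells, with signals of 11.7 on the columnar/hypertrophic array and 22.8 on the round array. Mmp9, which encodes gelatinase B and is abundant in osteoclasts and neutrophils, had 48.0 and 61.9. On these arrays 4 of 5 osteoclast markers and 5 of 6 neutrophil markers were undetected, with Acp5, the osteoclast acid phosphatase, at 13.9 and 76.4. The stromelysin genes Mmp3 (15.7 and 72.9) and Mmp10 (48.2 and 89.97), the neutrophil collagenase gene Mmp8 (43.7 and 50.1), Mmp11 (60.8 and 90.1) and Mmp19 (4.25 and 37.9) were also under the floor. Such values have no order, and they say that these transcripts were not detectable on these arrays and not that they were absent.

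Members that neighbour one another in the genome were then compared. A run of 9 MMP genes lies on chromosome 9 in the RefSeq gene order of mouse assembly GRCm38.p6, with at most 3 other protein-coding genes between neighbouring members (Mmp13, Mmp12, Mmp1b, Mmp3, Mmp1a, Mmp10, Mmp8, Mmp20 and Mmp7). All 9 were undetected, as were 12 of all 18 MMP genes. A run of 5 ADAM genes on chromosome 8 held 4 testis-expressed genes under the floor (Adam18, Adam3, Adam5 and Adam32) beside Adam9, which was well above it. On chromosome 16 the neighbours Adamts1 and Adamts5 differed in the same way, Adamts1 being detected on both arrays and Adamts5 on neither. Adamts15 and Adamts8, neighbours on chromosome 9, were both under it.

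Promoter sequence was compared between the members above and under the floor, because the collagenase gene cluster was undetected as a whole. RefSeq promoter sequences (GRCm38.p6, 250 bases before to 50 after the first start listed) were given for 42 of the 71 genes, 21 detected on 1 array or both and 21 undetected. The entries not matched include Mmp2, Adam12 and Mmp9. The motifs searched on both strands were the AP-1 site TGANTCA, the RUNX site TGTGGT, the TATA box TATAAA, the GC box GGGCGG and the CCAAT box CCAAT. A GC box was found in 17 of 21 promoters of members above the floor and in 3 of 21 under it. Over genes that are not members, it was found in 65.6% of 9499 promoters above the floor and in 31.6% of 4912 under it, and in 35.9% of all 27025 promoters. An AP-1 site was found in 0 of 21 promoters above the floor and 9 of 21 under it, where other genes had 4.36% and 10% and all promoters 7.93%. A TATA box was found in 2 of 21 and 10 of 21 (6.88% and 15.5% of other genes, 14.2% of all promoters). The AP-1 and TATA counts under the floor came mostly from the chromosome 9 cluster, whose genes are related copies and are not independent. Within it 7 of 9 promoters held an AP-1 site, 8 a TATA box and 0 a GC box. Of the 12 other promoters under the floor 2 held an AP-1 site, 2 a TATA box and 3 a GC box. A RUNX site was found in 3 of 21 and 5 of 21 (16.9% of all promoters), and a CCAAT box in 8 and 7 (37.9%). A match is a string of letters and not a site shown to be bound. The promoters below are those of Reck and Adamtsl4, which had lower signals on the columnar/hypertrophic array, of Adamts1 and Adamts20, which had the highest differences, and of Mmp13 from the undetected cluster. Capitals mark the matches of any of the 5 motifs, and in these promoters no matches of different motifs overlapped.
Reck (chr4:43875280-43875579, plus strand): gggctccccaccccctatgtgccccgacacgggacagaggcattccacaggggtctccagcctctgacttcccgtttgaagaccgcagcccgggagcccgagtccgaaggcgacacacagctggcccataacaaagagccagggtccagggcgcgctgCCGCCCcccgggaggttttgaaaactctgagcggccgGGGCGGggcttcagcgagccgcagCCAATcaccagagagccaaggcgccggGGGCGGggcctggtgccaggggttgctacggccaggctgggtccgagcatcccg
Adamtsl4 (chr3:95687868-95688167, minus strand): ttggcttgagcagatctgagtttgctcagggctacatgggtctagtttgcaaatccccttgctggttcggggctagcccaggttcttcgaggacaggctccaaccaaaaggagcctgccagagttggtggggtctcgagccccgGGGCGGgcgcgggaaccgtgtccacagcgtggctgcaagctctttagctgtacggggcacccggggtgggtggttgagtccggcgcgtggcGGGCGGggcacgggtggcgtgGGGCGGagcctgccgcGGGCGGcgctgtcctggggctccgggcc
Adamts1 (chr16:85803064-85803363, minus strand): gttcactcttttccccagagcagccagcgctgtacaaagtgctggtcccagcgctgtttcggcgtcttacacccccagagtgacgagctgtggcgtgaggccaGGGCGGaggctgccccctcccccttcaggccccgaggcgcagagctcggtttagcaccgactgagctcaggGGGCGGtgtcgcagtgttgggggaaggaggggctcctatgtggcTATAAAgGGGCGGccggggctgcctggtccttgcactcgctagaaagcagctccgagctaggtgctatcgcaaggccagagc
Adamts20 (chr15:94404301-94404600, minus strand): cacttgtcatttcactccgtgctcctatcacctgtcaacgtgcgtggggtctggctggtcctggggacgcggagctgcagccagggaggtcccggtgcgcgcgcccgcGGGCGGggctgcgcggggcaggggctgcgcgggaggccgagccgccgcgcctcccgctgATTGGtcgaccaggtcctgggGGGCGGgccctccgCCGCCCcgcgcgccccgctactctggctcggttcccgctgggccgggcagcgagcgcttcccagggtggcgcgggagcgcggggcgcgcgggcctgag
Mmp13 (chr9:7272264-7272563, plus strand): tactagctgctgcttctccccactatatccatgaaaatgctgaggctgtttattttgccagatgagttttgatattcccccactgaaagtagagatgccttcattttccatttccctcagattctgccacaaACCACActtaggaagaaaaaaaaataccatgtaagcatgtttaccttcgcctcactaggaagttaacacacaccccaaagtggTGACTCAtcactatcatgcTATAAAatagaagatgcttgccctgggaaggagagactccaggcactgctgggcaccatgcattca
The first 4 hold GC boxes and no AP-1 site, with a TATA box in Adamts1 alone, whereas the Mmp13 promoter holds a RUNX, an AP-1 and a TATA match and no GC box.

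Of 8 ADAM genes detected on both arrays, Adam12 alone was at least 2-fold lower, where 5.42% of all genes were. The other 7 lay within 2-fold. Another 2, Adam22 and Adam23, were detected on the round array alone and could only be lower. Both were at least 2-fold lower as bounds (background with bounds 6.37%). Adam12, encoding meltrin alpha, a sheddase of heparin-binding EGF and of IGF binding proteins that mesenchymal and muscle precursor cells express, had a signal of 279 on the columnar/hypertrophic array and 1272 on the round array. It was 4.57-fold lower (-2.19), and its other probe set gave 121 and 429, 3.54-fold lower. Only 0.645% of all genes detected on both arrays had a lower difference than Adam12. Adam10, the sheddase that starts Notch receptor cleavage, had 1354 and 1414 (-0.06) on these arrays, with a second probe set at -0.13 and another, 150 and 80.2, at a bound of 0.58. Adam17, encoding TACE, which releases TNF and EGF receptor ligands, had 824 and 743 (0.15), with its other 2 probe sets at 0.21 and 0.22. By their brightest probe sets these 2 genes differed by less than the spread between probe sets. Adam9, another widely expressed sheddase, had 1160 and 1495 (-0.37). Adam15, with an integrin-binding motif in the human protein, had 387 and 429 (-0.15, and 0.11 by another probe set), and Adam8, best known from leukocytes, 169.9 and 185 (-0.13). With equal medians the signs of Adam10 (0.22), Adam15 (0.13) and Adam8 (0.15) turned, and the median of the 6 sheddase genes detected was 0.14 in place of -0.14.

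Adam11, Adam22 and Adam23 encode ADAMs without an active proteinase centre, known mainly as neuronal receptors of LGI proteins, and had low signals. Adam22 (79.5 and 222 on the columnar/hypertrophic and the round array) and Adam23 (97.1 and 209.6) were at least 2.21-fold and 2.09-fold lower as bounds. Both were lost with equal medians, quantile normalization, a higher floor (99th percentile) and the mean of probe sets, and Adam23 also with lowess centring. Their other probe sets, 1 for Adam22 and 2 for Adam23, were undetected. Adam11 had 141 and 167 (-0.25, but 0.03 with equal medians). Of the 16 ADAM genes measured that are known mainly from testis and epididymis 15 were undetected. The exception was Adam4 (256 and 195, 0.39), with 1 probe set. Adam19, Adam28 and Adam33 were under the floor as well.

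**Figure D2:**
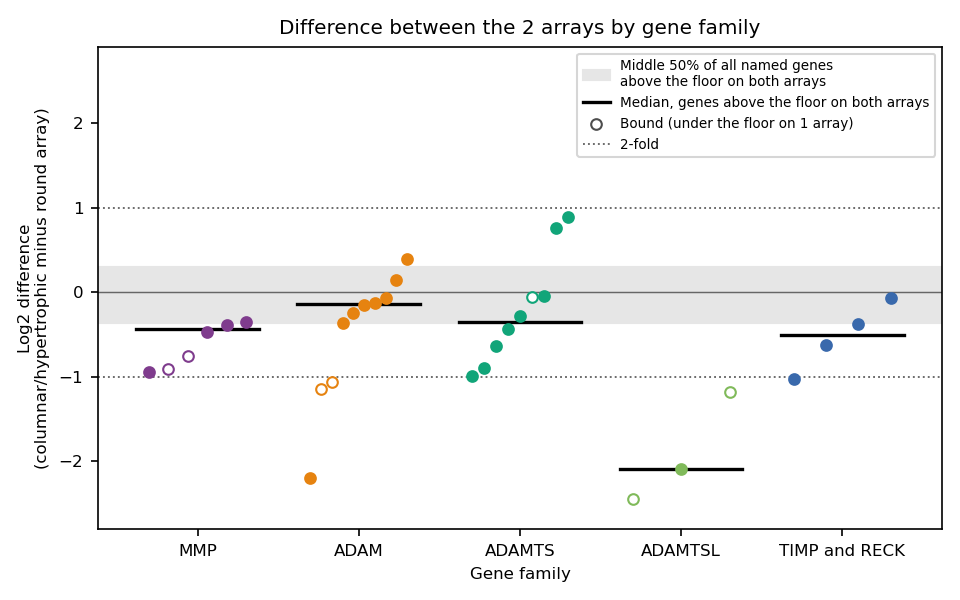
Log2 difference (columnar/hypertrophic minus round array) of the 32 genes detected on 1 array or both, by family, 1 point per gene, with open points for bounds, black bars for the medians of genes detected on both arrays and a grey band from -0.36 to 0.30 for the range between the quartiles of all named genes detected on both arrays. Adamtsl3 lies lowest, Adam12 stands apart from the other ADAMs, and Adamts1 and Adamts20 are the highest points.

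Among the ADAMTS proteinases that cut aggrecan and versican, 2 of 3 genes detected on both arrays had higher signals on the columnar/hypertrophic array, below 2-fold. Adamts20, which cuts versican and is needed for pigment cell survival in mouse skin, had 390 on the columnar/hypertrophic array and 210.1 on the round array, 1.85-fold higher (0.89). Adamts1, a versicanase and weak aggrecanase, had 651 and 384, 1.69-fold higher (0.76). Both rest on 1 probe set and lay just under the size counted, and with equal medians both passed it (1.17 and 1.04), as Adamts20 did with quantile normalization (1.07) and lowess centring (1.07). Of all genes detected on both arrays, 94.7% had a lower difference than Adamts20 and 92.5% a lower one than Adamts1. Adamts9, a versicanase of the pericellular matrix, had 689.6 and 838 (-0.28, with its other probe sets at -0.55 and -0.08). By its brightest probe set it differed by less than the spread between probe sets, and by -0.0004 with equal medians. The main aggrecanase genes were not detectable or nearly so. Adamts5 was undetected (47.0 and 86.9), and Adamts4 had 19.7 and 104, just detected on the round array alone, a bound of at least 1.04-fold lower. Adamts8 and Adamts15 were under the floor on both.

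Adamts3, the procollagen N-proteinase that acts on type II procollagen and on VEGF-C, had a signal of 3258 on the columnar/hypertrophic array and 4402 on the round array (-0.43). Its dimmer probe set gave 148 and 146 (0.02). Of the 7 remaining ADAMTS proteinase genes measured, 4 were detected on both arrays. All 4 lay under 0 by the brightest probe set (median -0.77), where 52.3% of all genes did. Adamts6, a close relative of Adamts10, had 209.9 and 417 (1.99-fold lower), and its other probe set, 102 and 286, was 2.81-fold lower. Adamts10, a fibrillin-associated proteinase gene mutated in Weill-Marchesani syndrome, had 578 and 1079 (1.87-fold lower), although its dim second probe set, at the floor on the round array, gave a bound of 0.13. Adamts12, which cuts COMP, had 527 and 816 (1.55-fold lower). Adamts16 had 133 and 138 (-0.05, but 0.23 with equal medians). Adamts7, Adamts18 and Adamts19 were undetected.

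Of 5 ADAMTS-like genes, 1 was detected on both arrays and was at least 2-fold lower in columnar/hypertrophic cartilage, where 5.42% of all genes were. Another 2 were detected on the round array alone and could only be lower, both by at least 2-fold as bounds (background with bounds 6.37%). Adamtsl3, encoding a punctin of the extracellular matrix, had a signal of 8.13 on the columnar/hypertrophic array and 548 on the round array, at least 5.45-fold lower. Adamtsl4, whose product binds fibrillin-1 and holds the eye lens in place, had 119 and 504, 4.25-fold lower (-2.09), with its columnar/hypertrophic signal close to the floor. Adamtsl2, the geleophysic dysplasia gene linked to TGF-β signalling, had 13.4 and 227, at least 2.26-fold lower, a call that was lost with equal medians, with quantile normalization and with a higher floor. In all 3 genes a clear signal on the round array stood beside one near or under the floor on the other array. Each of them had 1 probe set, so no second probe set checks them. Adamtsl1 and Adamtsl5 were undetected. Adam12, Adamtsl3 and Adamtsl4 kept a difference of at least 2-fold in every alternative processing that gave a value for them.

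Of the 4 inhibitor genes detected, all had differences under 0 by the brightest probe set, where 52.3% of all genes did. They ran from -1.02 for Reck to -0.07 for Timp1, the latter well within the spread between probe sets. Reck, encoding a membrane-anchored inhibitor of MMP2, MMP9, MT1-MMP and ADAM10, had a signal of 2889 on the columnar/hypertrophic array and 5859.5 on the round array, 2.03-fold lower (-1.02). With equal medians it was -0.74, under the size counted. Timp3, which binds to the matrix and inhibits ADAM17 and the aggrecanases, had 322 and 496 (-0.63), but its 4 probe sets lay between -0.89 and 0.33. Timp2, the partner of MT1-MMP in the activation of MMP2, had 2455 and 3185 (-0.38), and its 5 probe sets above the floor were all lower, by 0.18 to 0.60 on the log2 scale. Timp1 had 1552 and 1625 (-0.07, and 0.21 with equal medians), and Timp4 was under the floor (38.3 and 71.2).

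**Figure D3:**
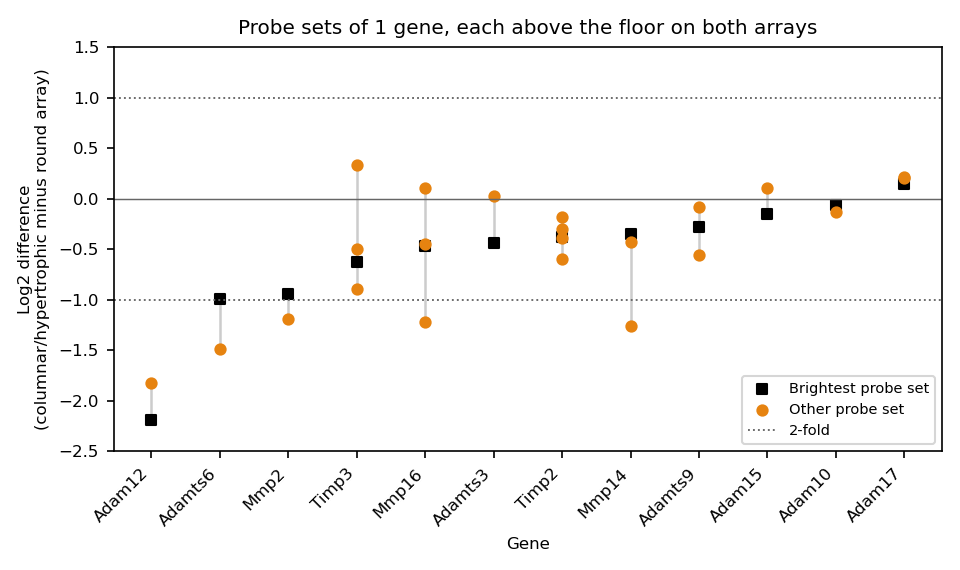
Log2 difference (columnar/hypertrophic minus round array) of each probe set detected on both arrays, for the 12 member genes with several such probe sets, with black squares for the brightest probe set of a gene and orange circles for the others. All probe sets of a gene lie on the same side of 0 for 8 of the 12 genes, and those of Timp3, Mmp16, Adamts3 and Adam15 lie on both sides.

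Substrates of these enzymes were set beside them. Of 16 measured substrate genes, 15 were detected on both arrays, and 6 of these were at least 2-fold lower in columnar/hypertrophic cartilage (5.42% of all genes), with none higher by that much (3.98% of all genes). Vcan, encoding versican, the shared substrate of ADAMTS1, ADAMTS9 and ADAMTS20, had 231 on the columnar/hypertrophic array and 4801 on the round array, 20.8-fold lower (-4.38, and -3.80 by another probe set). Fbn2, which encodes the fibrillin of embryonic microfibrils, had 251 and 2085, 8.32-fold lower, and Dcn and Col3a1, for decorin and type III collagen, were 5.36-fold and 5.26-fold lower. The main cartilage substrates were within 2-fold, with Acan at 32746 and 25528 (0.36) and Col2a1 at 37936 and 33307 (0.19). Col10a1, a collagenase substrate of hypertrophic cartilage, was above the floor on the columnar/hypertrophic array alone and at least 108-fold higher. Fbn2, Vcan, Dcn and Col3a1 are also expressed by perichondrium and fibroblasts, most of whose markers differed in the same direction. Col3a1, Col1a1 and Col1a2 are on both the substrate and that marker list, so for them the shared direction is no separate observation. The part of these tissues was not tested.

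Several genes that carry ADAMs to the cell surface had higher signals on the columnar/hypertrophic array, opposite to most members. Of 5 detected on both arrays, 2 had signals at least 2-fold higher, where 3.98% of all genes were, and 0 lower. Another 3 were detected on the columnar/hypertrophic array alone and could only be higher, 2 of them by at least 2-fold (Rhbdf2 and Tspan17). With these bounds 4 of 8 were at least 2-fold higher (background with bounds 4.31%). Frmd8, encoding iTAP, which holds the ADAM17 and iRhom complex at the surface, had 855 on the columnar/hypertrophic array and 282 on the round array, 3.03-fold higher. Rhbdf2, encoding iRhom2, the trafficking partner of ADAM17, had 368 and 83.6, at least 3.66-fold higher, whereas Rhbdf1, encoding iRhom1, had 1303 and 1326 (-0.02). The tetraspanins of the TspanC8 group, which direct ADAM10, were uneven. Tspan14 had 1211 and 408, 2.97-fold higher, and Tspan17 had 617 and 6.25, at least 6.14-fold higher, with its other probe set at 428 and 20.4. Tspan5 had 166 and 96.7 (at least 1.65-fold higher), Tspan15 140 and 180 (-0.37), and Tspan33 was undetected. Frmd8, Rhbdf2 and Tspan14 rest on 1 probe set each. The proteinase genes Adam10 and Adam17 themselves differed by -0.06 and 0.15.

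Of the 7 activator and convertase genes detected (11 on the list), 6 were detected on both arrays. Of the 6, 1 was at least 2-fold lower, where 5.42% of all genes were, and 0 higher, where 3.98% were. Hpn was detected on the columnar/hypertrophic array alone and could only be higher (at least 1.36-fold). Furin, the convertase that removes the propeptide of membrane-type MMPs and ADAMs, had 2230.5 and 1637 (0.45) on the columnar/hypertrophic and the round array, and the related convertase gene Pcsk6 had 760.3 and 433 (0.81). Pcsk5, another convertase gene, had 168 and 770.1, 4.58-fold lower, with its other probe set detected on the round array alone (64.2 and 274). The urokinase gene Plau, the tissue activator gene Plat and the plasminogen gene Plg were undetected.

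In the list of ADAM-shed ligands and receptors, 2 of 9 genes detected on both arrays had signals at least 2-fold lower, where 5.42% of all genes were, and 0 higher, where 3.98% were. Ghr, the growth hormone receptor gene, had 2565 and 8416, 3.28-fold lower, and Csf1 had 223 and 656, 2.94-fold lower (its other probe sets differed less, down to -0.52). The receptor gene Notch3 was at least 2.01-fold lower and the chemokine gene Cx3cl1 at least 2.11-fold higher, both as bounds next to 2-fold that could go only in that direction. The EGF receptor ligand genes Hbegf (0.20) and Tgfa (-0.22) were within 2-fold.

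Of 15 other matrix proteinase genes, 11 were detected on both arrays and 4 were undetected. Of the 11, 1 was at least 2-fold lower, where 5.42% of all genes were, and 0 higher, where 3.98% were. Fap, the fibroblast activation protein gene, had 152 on the columnar/hypertrophic array and 1039.8 on the round array, 6.86-fold lower. Bmp1, the procollagen C-proteinase gene, had 353 and 559.6 (-0.66), and its enhancer genes went apart, Pcolce at -0.57 and Pcolce2 at 0.76. The cathepsin genes Ctsl (-0.97), Ctsk (-0.62) and Ctsb (-0.61) were lower by less than 2-fold. Among other inhibitor and clearance genes A2m, encoding the proteinase trap alpha-2-macroglobulin, had 3370.2 and 6929, 2.06-fold lower. Lrp1, the receptor that clears MMPs and TIMPs, differed by -0.07, and the related receptor gene Lrp8 was 3.72-fold higher (1033 and 278, and 1.30 on the log2 scale by another probe set).

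**Figure D4:**
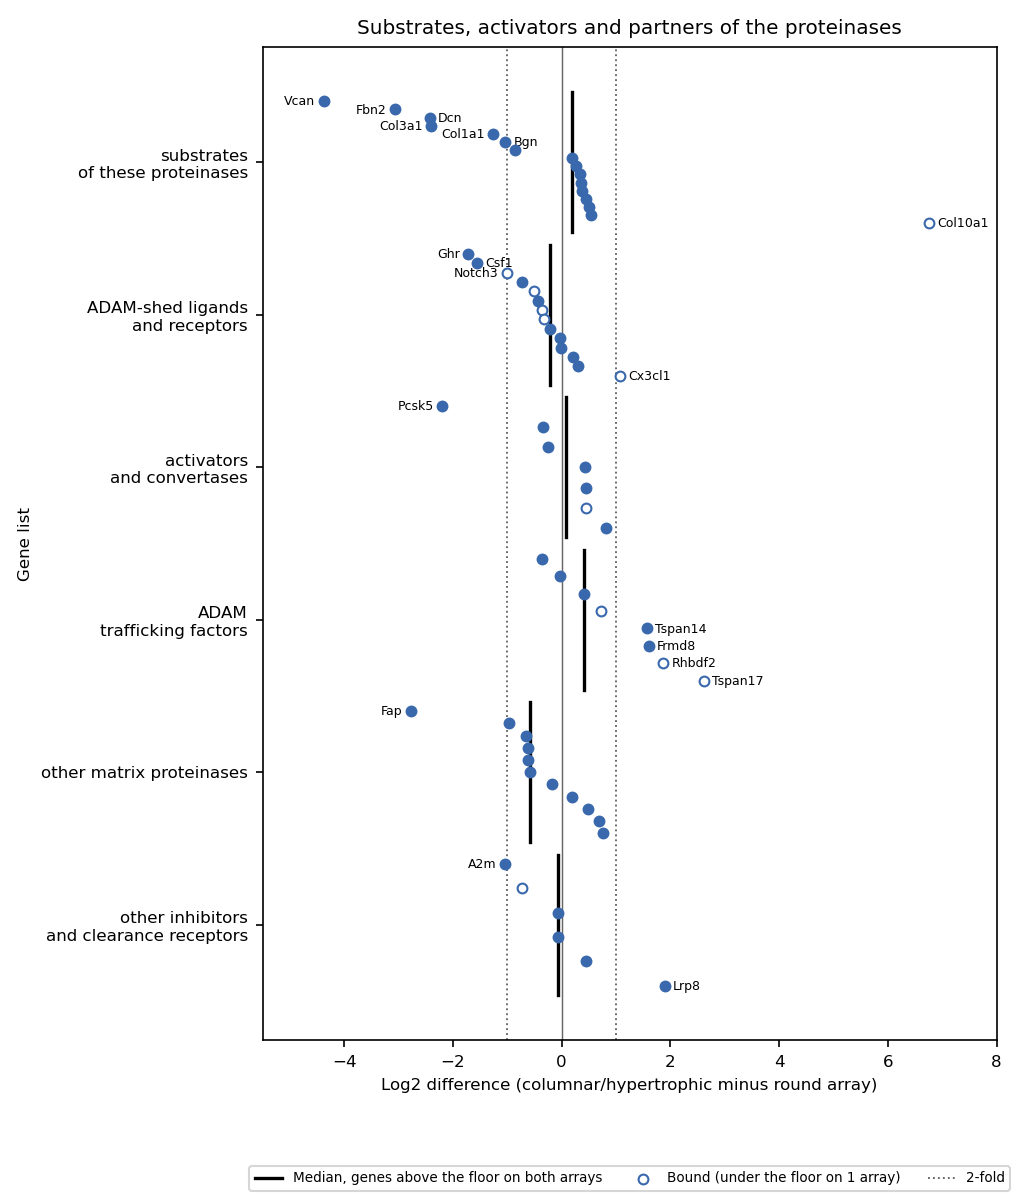
Log2 difference (columnar/hypertrophic minus round array) of substrates, shed proteins, activators, trafficking factors, other proteinases and other inhibitors, 1 point per gene, with open points for bounds, black bars for medians of genes detected on both arrays and names for genes at least 2-fold different. Vcan lies lowest, Col10a1 is the largest bound on the right, and 4 ADAM trafficking genes lie to the right of 2-fold (Rhbdf2 and Tspan17 as bounds).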

How the data were processed

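Per the labels, biotin-labelled cRNA was hybridised to an Affymetrix mouse array. The submitters' processing notes name MAS5 without a version. The deposited values are intensities, 1 linear signal per probe set, scaled by the authors to a trimmed mean of 499.8 on the columnar/hypertrophic array and 499.9 on the round array (the lowest and highest 2% left out). The study's methods name RMA, whose values are on a log scale. The deposited values are not. Gene names came from the platform's annotation table. Of 45101 probe sets, 34958 had 1 gene symbol and were used, 932 had several and 9211 were unnamed here. All 125 member probe sets matched RefSeq by Entrez identifier with the same symbol.

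The floor of 100.5 was the 95th percentile of signals of chemosensory receptor genes (87 probe sets, both arrays together). Lower signals were set to it ahead of the log2 step, which shortens differences of dim genes. A gene was represented by its probe set of highest mean log2 signal. Every member above the floor could be named, with both signals; from the other lists, up to 4 genes per list with the largest differences were named, together with Acan, Vcan, Col2a1, Col10a1, Bmp1 and Furin, and further genes, bounds included, were named after their values were seen to fill out a pathway. The members and lists were chosen with earlier results of these data known. Alternatives were 3 other scalings (equal medians, quantile normalization, lowess, span 0.3), a lower, a higher or no floor (90th percentile, 99th percentile), and 3 other choices of probe set. A planned search for zinc-binding motifs in the proteins was not run. Calculations used Python 3.11.15, numpy 2.4.6, pandas 2.3.3 and statsmodels 0.14.6, and the counting procedure was tested on simulated data. The number of arrays, 1 per group, limits the precision of every value.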

Additional observations from a re-analysis of the deposited data

How the results depend on the processing

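The count of members at least 2-fold higher was 0, but 2 with equal medians, 1 with quantile normalization, 1 with lowess centring and 6 without a floor. The count at least 2-fold lower was 7, but 3 with equal medians, 4 with a floor at the 99th percentile, and 22 without a floor, where signals under the floor are compared with one another. The median of members detected on both arrays, -0.37, ran from -0.47 without a floor to -0.09 with equal medians, where that of all genes was 0.25. The spread between probe sets, 0.37, is as large as this median and belongs to single genes. It therefore cannot show that the median was stable. With the second brightest probe set, which is available for fewer genes, the median of membrane-type MMPs was -1.24, of hyalectan-cleaving ADAMTS -0.55, of Adamts3 0.023, of the remaining ADAMTS -1.49 and of TIMPs and RECK 0.072. With the mean of probe sets the remaining ADAMTS had -0.35. For the list of Adam11, Adam22 and Adam23 the median was -0.68 for a 90th percentile floor, and -1.11 without a floor. Without a floor the median was -0.52 for the reproductive-tract ADAMs and -0.28 for the hyalectan-cleaving ADAMTS. The causes were not tested. No member called at least 2-fold different changed sign in any alternative that gave a value. For Adamtsl3, Adamtsl2, Adam22 and Adam23 this is no check where a floor was used, because they were detected on the round array alone. Adam12, Adamtsl4 and Reck were detected on both arrays. Adamtsl4 and Reck have 1 probe set each, so the second brightest gave no value for them. No paired analysis was possible because each group is 1 array. Leaving out a replicate was not possible for the same reason.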

Other observations

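Probe sets that name a member together with another gene were in no comparison. Of the 4 probe sets naming both Adam1a and Mapkapk5, a kinase gene, the brightest pair had signals of 279 and 183 on the columnar/hypertrophic array, against 368 and 418 on the round array. Adam1a by its own probe set was undetected (43.3 and 69.5), so these signals cannot be given to either gene. The probe set shared by Adam6a and Adam6b had 58.0 and 29.1, also undetected.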
